A study of Mus musculus with 2 samples.

Results

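The 8 SMAD genes and the receptor genes Tgfbr1 and Tgfbr2 were examined in G1E-ER4 cells, as 10 of 43346 gene rows. They were chosen by name, as the SMAD family with the pair of TGF-beta receptors, and every one was found through the GENCODE mouse annotation. Poly(A) RNA had been sequenced in paired-end mode in 2 libraries of 1 group, which the labels number as biological replicates 1 and 2. The labels give a male mouse erythroid line in which GATA1 function is restored, and a treatment with 10 nM 17beta-estradiol for 30 h. G1E-ER4 is a clonal line without a working Gata1 gene of its own that carries GATA1 joined to the ligand-binding domain of an estrogen receptor, so that estradiol activates the fusion protein. Both libraries share genotype, agent, dose and time, and no untreated library was analysed here, so levels and not effects of estradiol are given. Nothing in the labels says how the replicate cultures were separated, so a difference between the libraries may be technical.

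SMAD proteins carry signals of the TGF-beta family from the membrane to the nucleus. A ligand joins a type II and a type I receptor kinase, the type I receptor phosphorylates a receptor-regulated SMAD, and this SMAD enters the nucleus with the common partner SMAD4, while the inhibitory SMADs 6 and 7 restrain the pathway. In red cell formation, TGF-beta is known to slow the growth of erythroid progenitors and favour their maturation, and BMP4 is known in mouse for its part in stress erythropoiesis.

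Of the 10 genes, Smad4, Smad5 and Smad2 reached 1 TPM in both libraries, which is 30.0% of them. TPM is a transcript level corrected for length, with an equal total in each library, and 35.3% of the 21474 protein-coding genes reached 1 TPM in both. Tgfbr1 lay at that level and Smad6 below it. Smad7, Smad3, Smad1, Tgfbr2 and Smad9 had between 0 and 11 expected counts per library, of 73681318 counts in replicate 1 and 56056404 in replicate 2. An expected count is an estimated number of fragments, and where none was found a floor of 3 counts is used, which is 0.0407 CPM (counts scaled by the library total) in replicate 1 and 0.0535 CPM in replicate 2. The two-sided exact Poisson interval at 95% around 0 counts reaches slightly further, to 0.0501 CPM and 0.0658 CPM. The median over the 10 genes was 0.238 TPM, against 0.015 TPM over all protein-coding genes. In bulk RNA, fewer cells of a type and less RNA per cell cannot be told apart.

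The stretches of 250 bases before the first annotated start of each gene show the promoters of a detected and an undetected gene of the BMP branch and of the receptor pair. They were taken from RefSeq on GRCm38.p6, written 5′ to 3′, where 7 of the 10 genes had an entry. Capitals mark each match to CAGAC, a SMAD-binding element, to GGCGC, a GC-rich element bound by SMAD proteins, or to the GATA hexamers AGATAA or TGATAA, and likewise AGATAG or TGATAG, on either strand and with overlapping matches counted.
Smad5, chr13:56702760-56703009, plus strand: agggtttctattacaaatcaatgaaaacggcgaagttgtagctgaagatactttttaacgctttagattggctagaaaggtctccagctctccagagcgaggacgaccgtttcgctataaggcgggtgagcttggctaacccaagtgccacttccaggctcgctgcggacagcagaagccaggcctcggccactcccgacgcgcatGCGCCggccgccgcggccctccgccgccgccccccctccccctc
Smad9, chr3:54755332-54755581, plus strand: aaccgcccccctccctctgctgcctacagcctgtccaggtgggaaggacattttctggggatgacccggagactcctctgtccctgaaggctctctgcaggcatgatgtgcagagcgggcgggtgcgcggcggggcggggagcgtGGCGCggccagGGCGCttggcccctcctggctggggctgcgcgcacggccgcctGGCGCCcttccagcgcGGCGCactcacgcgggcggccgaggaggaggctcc
Tgfbr1, chr4:47352972-47353221, plus strand: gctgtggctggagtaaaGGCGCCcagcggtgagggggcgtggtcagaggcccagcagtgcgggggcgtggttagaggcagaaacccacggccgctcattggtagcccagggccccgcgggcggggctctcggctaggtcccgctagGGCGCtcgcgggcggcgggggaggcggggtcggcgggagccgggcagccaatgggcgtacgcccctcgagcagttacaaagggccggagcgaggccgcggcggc
Tgfbr2, chr9:116175364-116175613, minus strand: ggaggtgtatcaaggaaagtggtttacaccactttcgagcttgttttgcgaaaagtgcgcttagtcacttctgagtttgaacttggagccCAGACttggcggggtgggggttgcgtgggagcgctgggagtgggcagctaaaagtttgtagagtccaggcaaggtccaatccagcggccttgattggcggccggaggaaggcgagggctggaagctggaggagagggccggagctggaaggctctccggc
The GGCGC letters occurred once in the Smad5 window, 5 times in the Smad9 window, 3 times in the Tgfbr1 window and not in the Tgfbr2 window, where CAGAC occurred once. None of these 4 windows held a GATA hexamer. RefSeq lists further starts for Smad5 and Tgfbr1. For Smad5, the window chr13:56703418-56703667 held 1 GATA hexamer, 1 CAGAC and 1 GGCGC, and chr13:56702802-56703051 held 3 GGCGC and neither other element. For Tgfbr1, the window chr4:47385966-47386215 held 1 CAGAC and neither other element. Over 32536 distinct windows of the same length, 32.2% held GGCGC, 42.2% held CAGAC and 26.5% held a GATA hexamer. The 4 windows shown held 22 CpG dinucleotides for Smad5, 24 for Smad9, 29 for Tgfbr1 and 12 for Tgfbr2, against a median of 6 over all windows. The further Tgfbr1 window held 3. At the first starts, a high CpG number was thus present both upstream of Smad5 and Tgfbr1, which were detected, and upstream of Smad9, which had 0 counts.

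Smad4 (ENSMUSG00000024515.9, mm10 chromosome 18, 73639009 to 73703780, minus strand), the common partner of all receptor-regulated SMADs, had the highest level of the family. It stood at 12.4 TPM (2970 counts) in replicate 1 and at 17.4 TPM (3195 counts) in replicate 2, a mean of 14.9 ± 3.55 TPM (SD, n = 2, as for all means here). That level exceeded 82.1% of protein-coding genes. Smad4 made up 65.9% and 74.3% of the summed TPM of the 8 SMAD genes, which came to 18.8 TPM in replicate 1 and 23.4 TPM in replicate 2. It exceeded the sum of the 5 receptor-regulated SMADs by 2.08-fold in replicate 1 and 3.15-fold in replicate 2. After adjustment of TPM for transcript GC content the same ratios were 1.07 and 1.69, and over protein-coding transcripts alone they were 4.0 and 5.10.

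Among the SMADs that carry BMP signals, reads were found almost only on Smad5. Smad5 (ENSMUSG00000021540.12, chromosome 13, 56703010 to 56742377, plus strand) stood at 3.33 TPM (471 counts) in replicate 1 and at 2.46 TPM (268 counts) in replicate 2, a mean of 2.90 ± 0.615 TPM. Smad1 (ENSMUSG00000031681.10, chromosome 8, 79338395 to 79399518, minus strand), its close relative which also pairs with SMAD4, was found once in replicate 1 and had 3 counts in replicate 2. Smad9 (ENSMUSG00000027796.2, chromosome 3, 54755582 to 54801257, plus strand), the third SMAD of this branch, was the only member with 0 counts in both libraries, as were 39.8% of protein-coding genes. At its length 3 counts would be 0.00772 TPM in replicate 1 and 0.0101 TPM in replicate 2. Smad1, Smad5 and Smad9 have similar coding sequences. The counts of all 10 genes were whole numbers in both libraries within 0.005, so their totals held no fractional fragment. Whole totals cannot show whether a fragment shared by similar genes was given to 1 of them entirely.

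Of the SMADs that carry TGF-beta and activin signals, Smad2 was detected and Smad3 was at the limit of detection. Smad2 (ENSMUSG00000024563.11, chromosome 18, 76241580 to 76310963, plus strand) stood at 2.60 TPM (359 counts) in replicate 1 and at 3.02 TPM (282 counts) in replicate 2, a mean of 2.81 ± 0.297 TPM. Smad3 (ENSMUSG00000032402.8, chromosome 9, 63646767 to 63757994, minus strand), which unlike SMAD2 binds DNA directly in its main form, had 0 counts in replicate 1 and 5 counts in replicate 2. The summed TPM of the BMP branch was 3.33 against 2.60 for the TGF-beta branch in replicate 1, and 2.48 against 3.04 in replicate 2. The log2 ratio of the branches was therefore 0.36 in replicate 1 and −0.29 in replicate 2, with a mean of 0.03 ± 0.46, and the libraries differed in its sign.

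The inhibitory SMADs were low. Smad6 (ENSMUSG00000036867.7, chromosome 9, 63953076 to 64022059, minus strand), which acts mainly on BMP signals, stood at 0.45 TPM (95 counts) in replicate 1 and at 0.41 TPM (66 counts) in replicate 2, a mean of 0.43 ± 0.0283 TPM. Smad7 (ENSMUSG00000025880.7, chromosome 18, 75367529 to 75395935, plus strand), a general inhibitor that brings ubiquitin ligases to type I receptors, had 3 counts in replicate 1 and 11 counts in replicate 2. Both are also known as target genes of the pathway they inhibit.

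The receptor pair was uneven. Tgfbr1 (ENSMUSG00000007613.11, chromosome 4, 47353222 to 47414931, plus strand), the type I receptor kinase for TGF-beta, stood at 1.15 TPM (351 counts) in replicate 1 and at 0.92 TPM (186 counts) in replicate 2, a mean of 1.04 ± 0.163 TPM. Tgfbr2 (ENSMUSG00000032440.8, chromosome 9, 116084293 to 116175360, minus strand), the type II receptor that binds TGF-beta and activates TGFBR1, was found once, in replicate 1, with 0 counts in replicate 2. The exact Poisson interval at 95% around that 1 count reached up to 0.0756 CPM, against 4.76 CPM for Tgfbr1 in the same library. Intervals and floors cover counting error only.

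**Figure D1:**
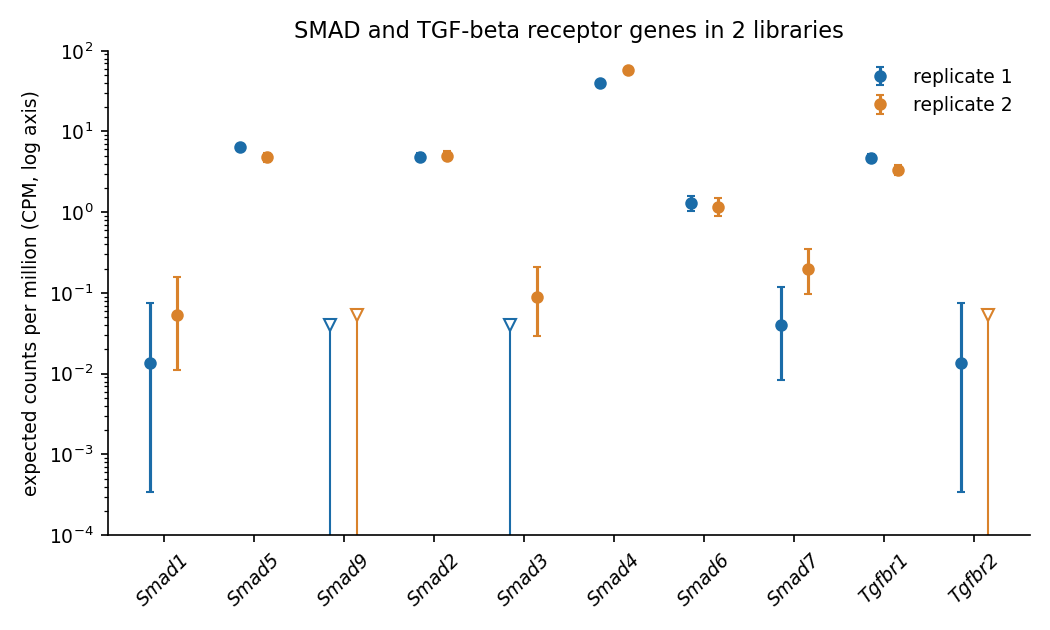
Expected counts scaled by the library total (CPM) on a log axis for the 10 genes in both libraries, with exact Poisson intervals at 95%, and open triangles at the floor of 3 counts where a gene had 0 counts. Smad4 stands highest at 40.3 and 57.0 CPM, and Smad1, Smad3, Smad7, Smad9 and Tgfbr2 stay below 0.2 CPM in both libraries.

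In the order of mean TPM, Smad4 stood above Smad5 and Smad2, then came Tgfbr1, Smad6 and Smad7. The ranges of the libraries did not overlap between Smad4 and Smad5, between Smad2 and Tgfbr1, between Tgfbr1 and Smad6, or between Smad6 and Smad7. They overlapped between Smad5 and Smad2, which did not differ beyond their spread. They also overlapped between each pair of neighbours among Smad7, Smad1, Smad3, Smad9 and Tgfbr2. The place of Smad5 in this order depended on which of its transcripts were counted.

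Most of the Smad5 level came from a transcript that GENCODE M21 annotates as a retained intron. This transcript, ENSMUST00000138677 with 1398 bases, held 85.6% of Smad5 TPM in replicate 1 and 85.3% in replicate 2. In counts, which are not divided by length, its share was 56.1% and 54.8%. The protein-coding transcript ENSMUST00000069557, with 6584 bases, held 9.74% and 10.7% of Smad5 TPM, and ENSMUST00000109876, with 4570 bases, held 4.69% and 3.98%. Summed over protein-coding transcripts, Smad5 stood at 0.481 TPM (207 counts) in replicate 1 and at 0.361 TPM (121 counts) in replicate 2. On that scale Smad5 lay below Smad2 and Tgfbr1 in both libraries, and the log2 ratio of the BMP to the TGF-beta branch was −2.42 in replicate 1 and −3.03 in replicate 2. The split between transcripts is an estimate, and reads that fit more than 1 of the transcripts were not counted apart. The gene Gm27301, a miscellaneous RNA inside Smad5 on the same strand, had 0 counts in both libraries.

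Smad4 reads fell on 1 protein-coding transcript, ENSMUST00000025393, with 99.7% of TPM in replicate 1 and 100% in replicate 2. Smad6 likewise had all its expected counts on ENSMUST00000041029. Smad2 was spread over 3 transcripts, all annotated as protein-coding. ENSMUST00000091831, with 1645 bases, held 44.9% and 46.7% of Smad2 TPM, ENSMUST00000168423, with 2857 bases, held 39.0% and 27.5%, and ENSMUST00000171256, with 972 bases, held 16.1% and 25.9%. By counts the longest of the 3, ENSMUST00000168423, led in both libraries, with 204 and 127 counts against 130 and 119 for ENSMUST00000091831. For Tgfbr1, the protein-coding transcript ENSMUST00000007757, with 5756 bases, held 72.1% and 62.0% of TPM. The processed transcript ENSMUST00000123962, with 372 bases, held 27.0% and 38.0% of TPM from only 5 and 4 counts, and Tgfbr1 had 0.836 and 0.570 TPM over protein-coding transcripts. The leading transcript by TPM was the same in both libraries for the 5 genes with at least 20 counts in each.

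**Figure D2:**
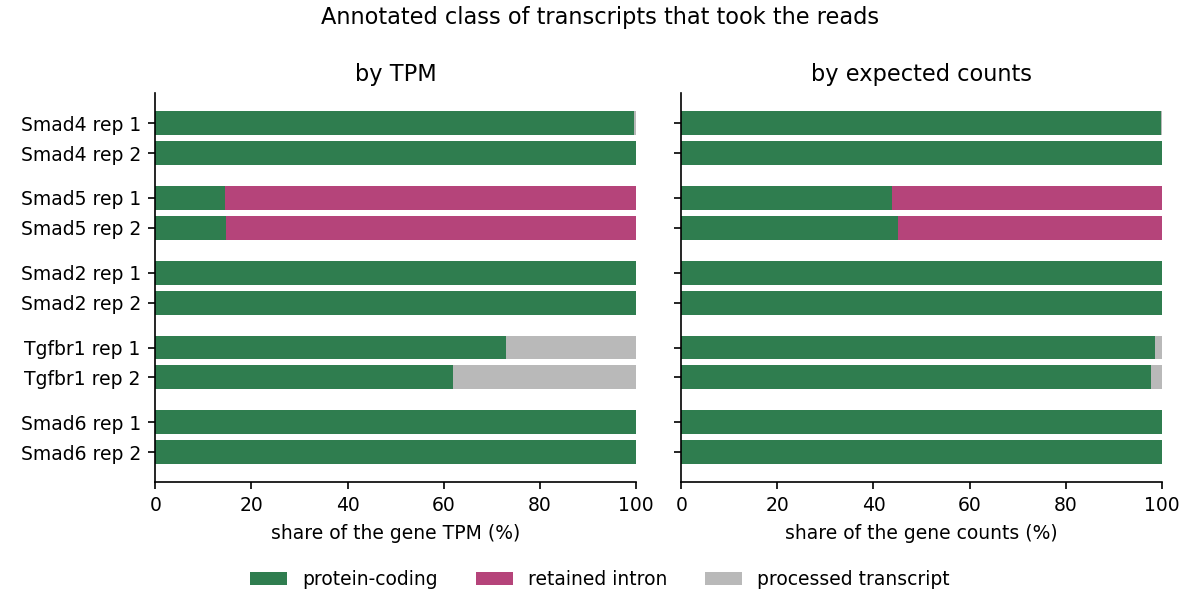
Share of each gene taken by transcripts annotated as protein-coding, retained intron or processed transcript, by TPM on the left and by expected counts on the right, for each library. The retained-intron transcript holds 85.6% and 85.3% of Smad5 TPM and 56.1% and 54.8% of its counts, while Smad2, Smad4 and Smad6 lie on protein-coding transcripts almost entirely.

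Whether the members differed between the libraries was tested by an exact two-sided binomial test of the counts, adjusted by Benjamini-Hochberg over 10445 genes with at least 20 summed counts. It called 59.3% of these genes. The test holds counting error alone, compares the reads of these libraries and says nothing of conditions. It called 3 of the 5 members tested. Higher in replicate 1 were 2 members and 30.4% of genes, and higher in replicate 2 were 1 member and 28.9% of genes. Smad4 was lower in replicate 1, with a log2 ratio of replicate 1 over replicate 2 of −0.56 (exact binomial test, adjusted p = 9.4e-51). Smad5 was higher in replicate 1 at 0.36 (exact binomial test, adjusted p = 0.00227), as was Tgfbr1 at 0.46 (exact binomial test, adjusted p = 0.000911). Smad2, at −0.10, and Smad6, at 0.07, were not called (exact binomial test, adjusted p = 0.466 and 0.864). At the common dispersion of the 2 libraries, an edgeR exact test called 0.91% of genes and 0 members, and no member had an unadjusted p under 0.05. That dispersion contains the difference being tested, so the lack of calls does not show that the members were alike in the libraries.

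**Figure D3:**
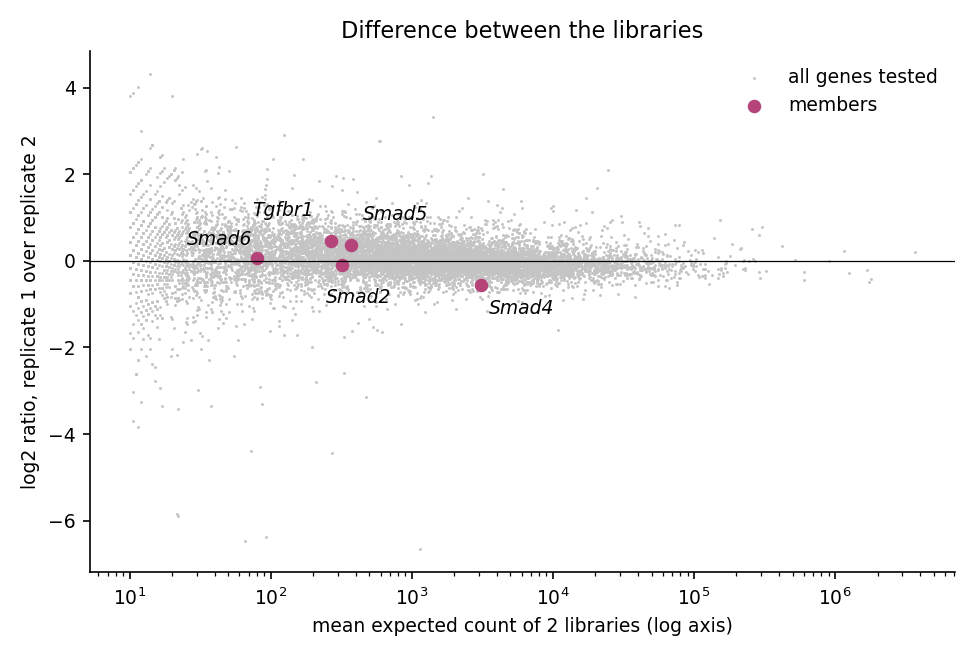
Log2 ratio of replicate 1 over replicate 2 against the mean expected count on a log axis for the genes tested, with members in colour, and without the 18 genes that had 0 counts in 1 library. The 5 members lie between −0.56 and 0.46 inside the cloud of all genes.

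The other type I receptors were nearly silent. None of the 6 reached 1 TPM. Acvrl1 had 0 and 1 counts in replicates 1 and 2, Acvr1 had 4 and 0, Acvr1b had 0 and 6, and Acvr1c had 1 and 1. The BMP type I receptor genes Bmpr1a and Bmpr1b had 0 counts in both libraries. Tgfbr1 was thus above every other type I receptor gene listed, in both libraries.

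Type II receptors other than Tgfbr2 were present. The activin receptor gene Acvr2b stood at 6.43 TPM in replicate 1 and at 6.03 TPM in replicate 2, and the BMP receptor gene Bmpr2 stood at 4.78 TPM in replicate 1 and at 5.47 TPM in replicate 2. The receptor gene of anti-Müllerian hormone, Amhr2, had 1.20 and 2.36 TPM, and Acvr2a had 0.06 and 0.09 TPM. Acvr2b and Bmpr2 stood above Tgfbr1 in both libraries. Their GC contents were 59.3% and 39.6%, and after adjustment for GC content Acvr2b averaged 2.67 TPM and Bmpr2 13.6 TPM, against 1.96 TPM for Tgfbr1.

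Tgfb1 was far above the other ligand genes. Tgfb1, the TGF-beta ligand known from blood cells, stood at 723 TPM in replicate 1 and at 680 TPM in replicate 2, a mean of 702 ± 30.6 TPM, above 99.3% of protein-coding genes. It exceeded Tgfbr1 by 629-fold and 739-fold, and by 245-fold and 251-fold after adjustment for GC content. Of the 24 ligand genes, 2 reached 1 TPM in both libraries. The second was Amh, the anti-Müllerian hormone gene, at 1.14 and 1.57 TPM, while Tgfb2 had 7 and 4 counts, and 13, Tgfb3 among them, had 0 counts in both. Among the extracellular regulators, 2 of 13 reached 1 TPM. Furin, a protease that processes TGF-beta precursors, stood at 236 TPM in replicate 1 and at 269 TPM in replicate 2, and Erfe, the erythroblast hormone erythroferrone that binds BMP ligands, had 90.5 and 68.0 TPM. Ltbp4, a binding protein of latent TGF-beta, had 0.17 and 0.07 TPM, and the activin antagonist gene Fst had 0 counts. Of 10 matched coreceptor genes, 1 reached 1 TPM. It was Tfr2, a partner in iron sensing and of the erythropoietin receptor, at 4.07 and 4.25 TPM. The decoy receptor gene Bambi had 0.83 and 0.87 TPM, the endoglin gene Eng had 0.19 and 0.14 TPM, and the betaglycan gene Tgfbr3 had 0 counts.

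Most regulators inside the cell were detected: of 26, 19 passed 1 TPM in both libraries, and their median was 10.3 TPM. The small phosphatase genes Ctdsp1, at 175 and 157 TPM, and Ctdsp2, at 64.6 and 79.8 TPM, encode enzymes that act on SMAD linkers. Hgs, at 132 and 141 TPM, encodes an endosomal protein of receptor sorting, and Pmepa1, a target that limits SMAD2 and SMAD3, had 0 counts. Trim33, chosen after its values were seen because TIF1gamma competes with SMAD4 for SMAD2 and SMAD3 in human progenitor cells, had 1.81 and 1.64 TPM, below Smad4 in both libraries. Of 18 genes of SMAD partners, 13 reached 1 TPM. The 3 highest were Gata1, at 2036 and 1608 TPM, with endogenous and introduced sequence not separated, Runx1, at 169 and 194 TPM, and the kinase gene Hipk2, at 103 and 96.6 TPM, and Zfp423 had 0 counts.

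Known target genes of the pathway were mostly below 1 TPM. Of 24 matched targets, 2 of which are Smad6 and Smad7, 4 reached 1 TPM in both libraries. That is 16.7%, against 35.3% of protein-coding genes. These 4 targets were Junb at 214 and 254 TPM, Cdkn1a at 155 and 194 TPM, Myc at 58.0 and 43.5 TPM and Id1 at 34.4 and 42.6 TPM. Id1, a classical target of BMP signals, was named after its values were seen. Its relatives Id2 and Id4 had 0 counts in both libraries, and Id3 had 3 and 2. The median of the targets was 0.045 TPM, which is above the 0.015 TPM over all protein-coding genes. All 11 matched genes of the non-SMAD arm reached 1 TPM, from Mapk8, a stress kinase gene, at 1.68 and 1.27 TPM, through the p38 kinase gene Mapk14, at 28.4 and 38.8 TPM, and Xiap, at 36.3 and 43.0 TPM, to the small GTPase gene Rhoa, at 104 and 90.8 TPM. Over protein-coding transcripts alone, Mapk8 had 0.97 and 0.79 TPM, so the counts of pathway genes at 1 TPM hold for all transcripts of a gene together. Over all 129 other pathway genes, 55 reached 1 TPM in both libraries, or 42.6%, against 35.3% of protein-coding genes. The binomial test called 42 of 65 tested pathway genes between the libraries, 12 of them higher in replicate 1 and 30 higher in replicate 2. Over all genes tested, 59.3% were called, 30.4% as higher in replicate 1 and 28.9% as higher in replicate 2.

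**Figure D4:**
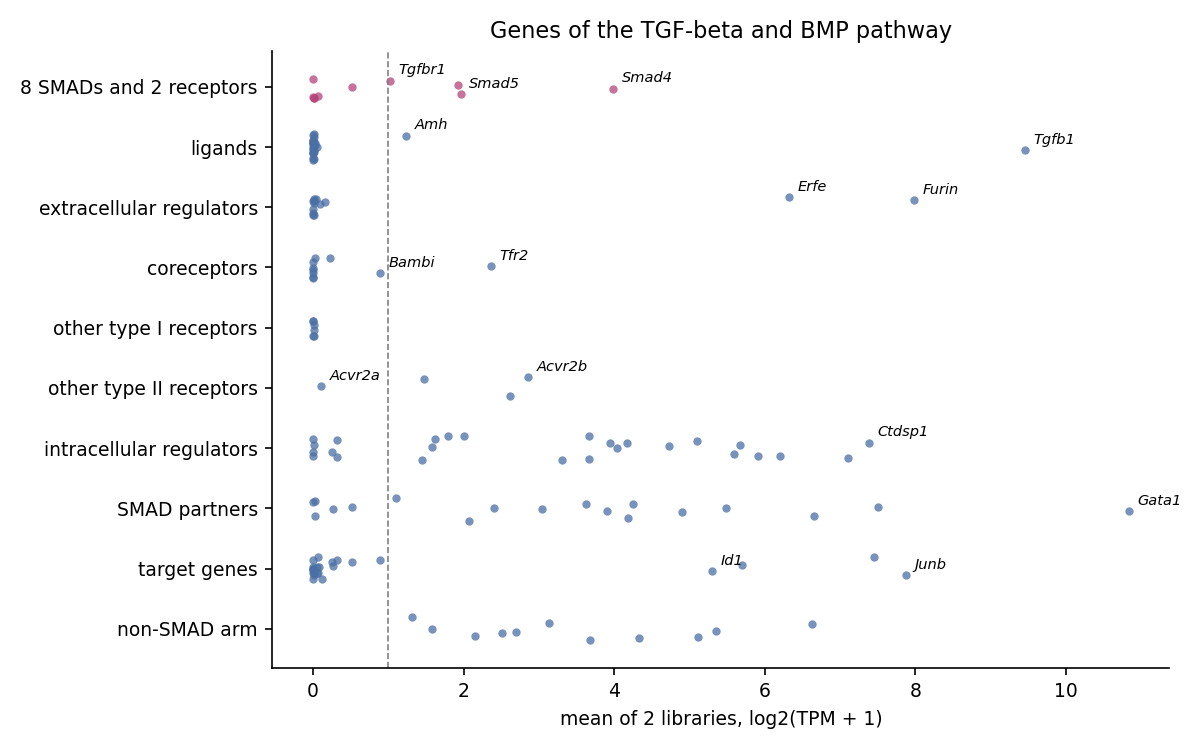
Mean of 2 libraries on the log2(TPM + 1) scale for each gene of the members and of 9 pathway lists, with small vertical scatter for display and a dashed line at 1 TPM. Tgfb1 stands apart from the other ligands at 702 TPM, all 6 other type I receptors lie near 0, and the members lie at or below 14.9 TPM.

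The cell label was checked against markers. The 12 erythroid markers all exceeded 1 TPM in both libraries, with 271776 and 287274 summed TPM. Gata1 is among these 12, and its endogenous and introduced sequence were not separated, so its level cannot check the label. Markers of other cells were far lower. The 6 megakaryocyte markers summed to 21.8 and 17.8 TPM, and they did not move one way. Gp1ba, the most abundant, had 3209 counts in replicate 1 and 1504 in replicate 2, Itga2b had 349 and 257, and Pf4 and Vwf had 0 counts in replicate 1 against 20 and 24 counts in replicate 2. The 5 mast cell markers summed to 1.45 and 1.48 TPM, with Cpa3 and Fcer1a at 0, the 4 lymphoid markers to 0.48 and 0.38 TPM, and the 6 stromal markers to 0.03 and 0.01 TPM. The 7 myeloid markers summed to 0.43 TPM in replicate 1 and 10.9 TPM in replicate 2, where Mpo had 507 counts against 32 in replicate 1. Of these 7 markers, 3 had enough counts to test. The binomial test called all 3 higher in replicate 2, against 28.9% of genes. The edgeR exact test called these 3 as well, against 0.91% of genes. Ptprc alone of this list went the other way, with 9 counts in replicate 1 and 1 in replicate 2. Smad1, Smad3 and Smad7 had more counts in replicate 2 than in replicate 1, by 3 against 1, 5 against 0 and 11 against 3. Tgfbr2 went the other way, with 0 counts in replicate 2 and 1 in replicate 1. The part of RNA from myeloid cells in these traces was not tested.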

How the data were processed

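Per the deposited description files, the authors quantified each library on mm10 with GENCODE M4. No source used here names the aligner, the quantifier or the strand setting. Expected counts, as deposited, are estimated fragments per gene or transcript. The deposited TPM and FPKM values are scaled for length and library, per the file headers, and the deposited percent is the share of a gene's TPM held by a transcript.

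Of 43346 gene rows used, 10445 with at least 20 summed counts were tested. Rows named by a number, which held 5 and 4 counts, and spike-in rows, which held 0, were left out. GENCODE M21, also on mm10, gave names, coordinates, transcript classes and GC content for 42462 rows. Of 190 list entries, 4 had no match. Members and lists were chosen with earlier results of these data known.

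Expected counts were rounded and scaled by TMM in edgeR 4.0.16 (R 4.3.3), and libraries were compared by the exact binomial test of scipy 1.17.1 at an adjusted p of 0.05. That step was tested on data simulated with counting error alone, so the simulation does not cover further variation between libraries. For the GC adjustment, medians of log2(TPM + 1) over 20 GC bins of expressed genes were interpolated and removed. Named are all members, all other type I and II receptors, and the 3 highest and the lowest gene of each further list (the first listed where several were at 0). Patterns of likeness were not computed, since 1 condition gives none. Alternatives were other units, posterior means, totals, size factors from DESeq2 1.42.0, minimums, and each library alone. TPM over protein-coding transcripts was added after the data were seen. The values of 1 marker gene are not reported here.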

Additional observations from a re-analysis of the deposited data

How the results depend on the processing

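The number of members at 1 TPM was 3 or 4 under other units and totals, with each library alone giving 3 and 4, and was 2 over protein-coding transcripts, an alternative chosen after seeing the data. The log2 branch ratio lay between −0.29 and 0.36 with 1 library left out, and between −0.05 and 0.28 in posterior mean TPM, FPKM, GC-adjusted TPM and counts. Over protein-coding transcripts it was −2.72, since the retained-intron transcript of Smad5 no longer entered. By posterior means, the mean share of the leading transcript was 73.1% for Smad5, against 85.4% of TPM. For Smad6 it was 66.7%, against 100%. The binomial test called between 5960 and 6199 genes under other scalings, minimums and posterior mean counts. It called 3 members, except with no minimum count, where 5 were called. The calls added there were Smad3 and Smad7, which have 0 to 11 counts per library, and Smad2 and Smad6 were again not called. The edgeR exact test called 95 genes and 0 members. Its dispersion contains the difference between these libraries, and 576 genes had an unadjusted p under 0.05 in it. In it Smad4, Smad5 and Tgfbr1 kept their direction and lost their call, each with an adjusted p of 1. Of the pathway genes, 34 passed a minimum of 10 TPM, 62 passed 0.1 TPM, and 55 passed 1 TPM in each library alone.

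In both libraries the median level of expressed genes rose with GC content, in replicate 1 from a log2(TPM + 1) of 2.86 at 40.7% to 5.17 at 61.0%. Adjusted for it, Smad5 averaged 5.15 TPM, Smad2 4.23 TPM and Smad4 12.9 TPM. Smad6, with 60.6% GC, went to 0 by construction, so adjusted values of such low genes cannot be read. The 1 added before the logarithm also lifts low genes of low GC content. Acvr2a, with 41.1% GC, went from a mean of 0.075 to 1.43 TPM. Adjusted levels near 1 TPM, such as that of Tgfbr1, and the ratios to them carry this effect too. In posterior mean TPM, Smad3 averaged 0.21, Smad7 0.175 and Smad6 0.65. Counts of 0 to 11 limit what can be said of the other 5 genes. No paired analysis was possible because both libraries belong to 1 group.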
